A study of Bos taurus with 20 samples.

Results

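The genes described here are 109 cattle genes whose transcript level stayed within 1.5-fold over the first 24 h after serum was lowered, at least halved between 24 h and 48 h, and did not recover by 96 h. They were chosen from the measured values, out of 14636 genes that passed a filter on low counts and 27607 genes in the table. The data were polyA RNA sequencing counts from satellite cells of the Belgian Blue breed, a double-muscled beef breed. The cells were grown on collagen with 20% fetal bovine serum and harvested at 0 h, or moved to medium with 2% serum and harvested after 24, 48, 72 or 96 h. Each of the 5 time points had 4 libraries, replicates A and B in batch 1 and replicates C and D in batch 2. The labels call these biological replicates without tying them to separate animals, so p-values measure the spread between these libraries. There was no group kept in high serum beyond 0 h, so time in culture and time in low serum cannot be told apart.

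Satellite cells are the stem cells of skeletal muscle. In high serum they divide as myoblasts, and on withdrawal of serum they tend to leave the cell cycle, switch on muscle genes and fuse into myotubes. A transcript that a cell stops making declines at a rate set by how quickly the existing RNA is degraded, so its level can persist after its gene has been shut down. In bulk RNA, a lower level can mean fewer cells of a kind or less RNA per cell, and these libraries cannot tell the 2 apart.

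Total counts ranged from 21100797 to 41998509 per library. Genes carried Ensembl cattle identifiers alone, and 0 of them were paired with a symbol in the gene table used here. The functions of the 109 genes are therefore not described, and the labelled cell type was not checked against its markers. Only the 2 members with the steepest second-day fall among those at 10 CPM or more at 0 h are named.

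The choice of members rested on day means of TMM-scaled CPM (counts in a library scaled to a common total, after correction for composition) with 0.1 CPM added. A member had a 0 h mean of at least 2 CPM, a 24 h mean within 1.5-fold of it, a 48 h mean at or below 50% of the 24 h mean, a 72 h mean above 50% of the 48 h mean, and a 96 h mean at least 3-fold below 0 h and under 1.5 times the 72 h mean. The 3 members nearest the second-day limit had 48 h levels at 49.93% to 49.96% of 24 h. The 3 nearest genes on the other side met all other limits and stood at 50.17%, 50.26% and 50.29%. In all, 122 genes met every limit except this one, and 39 of them stood under 55% at 48 h. The limit thus does not fall in a gap between the members and other genes. With library sizes alone in place of TMM the same rule took 382 genes, which included 104 of the 109.

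At 0 h the members spanned 2.12 to 7317 CPM, with a median of 29.3 CPM. The median of all kept genes at 2 CPM or more was 28.6 CPM. Of the 109, 24 lay under 10 CPM, 69 from 10 to under 100 CPM, and 16 at 100 CPM or more. For the harvests at 24, 48, 72 and 96 h the median over members was 23.8, 9.73, 7.40 and 6.34 CPM. As a percentage of each gene's own 0 h mean, the 24 h level had a median of 76.1% and ran from 67.1% to 124%. One day later the median was 32.5%, with a range from 17.1% to 51.9%. The 72 h level had a median of 24.4% (11.4% to 46.6%) and the 96 h level one of 20.1% (7.06% to 33.1%). These percentages describe values that the choice itself constrained.

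**Figure D1:**
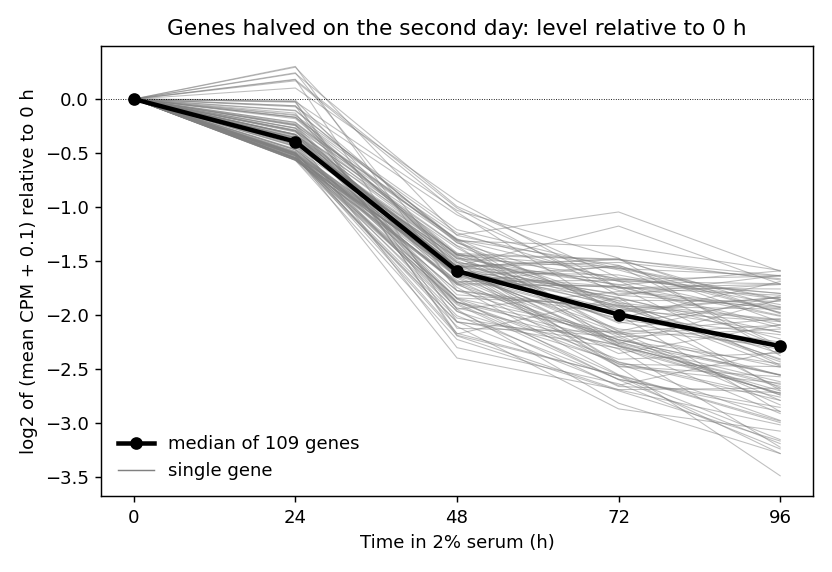
Each grey line is 1 of the 109 genes, drawn as the log2 of its day mean (CPM plus 0.1) relative to 0 h against time in 2% serum in hours, and the black line is the median over genes. At 24 h the lines lie within 1.5-fold of 0 h, most of them below it. All drop between 24 h and 48 h, as the rule required, and they fan out between 48 h and 96 h.

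Most of these genes were not flat on the first day. The 24 h mean was below the 0 h mean for 101 of 109 and above it for 8. Only 40 stood between 80% and 125% of 0 h, while the other 69 had dropped to 80% or less, the limit of the rule being 1.5-fold. The edgeR quasi-likelihood test, adjusted over all 14636 genes, called 80 of the 109 (73.4%) lower at 24 h and 1 higher, where 34.5% of all genes were called lower and 31.7% higher. The median log2 change of the members was -0.40 (range -0.58 to 0.33), against -0.02 over all genes tested. The rule set the lower bound of these changes, and nothing is read from the comparison with the background beyond its values. A description of the genes as untouched until the second day would thus hold for a minority. On the day means with 0.1 CPM added, the second-day log2 drop was the largest of the 4 daily drops for 109 of 109, which the rule already fixed against the first day and the third. For 1 scarce member this did not hold without that offset, since its edgeR log2 change was -1.12 on the second day and -1.33 on the fourth. The first day held a median of 16.1% of the whole log2 drop from 0 h to 96 h, the second 55.6%, the third 17.7% and the fourth 12.7%.

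The single member called higher at 24 h held 8.88, 9.94, 9.45 and 9.89 CPM at 0 h in replicates A to D. At 24 h it held 12.4, 11.3, 11.2 and 11.97 CPM, above every 0 h library. Its log2 change was 0.30 (standard error 0.12, edgeR adjusted p = 0.0272). At 48 h the same gene was at 3.72, 4.58, 2.82 and 4.53 CPM, and no 48 h library overlapped with 24 h. It ended at 24.6% of its 0 h mean at 96 h. The first-day rise missed the threshold without replicate A at 0 h, replicate C at 0 h or replicate A at 24 h (edgeR adjusted p = 0.0611, 0.0551 and 0.086), and in batch 2 alone (edgeR adjusted p = 0.258).

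**Figure D2:**
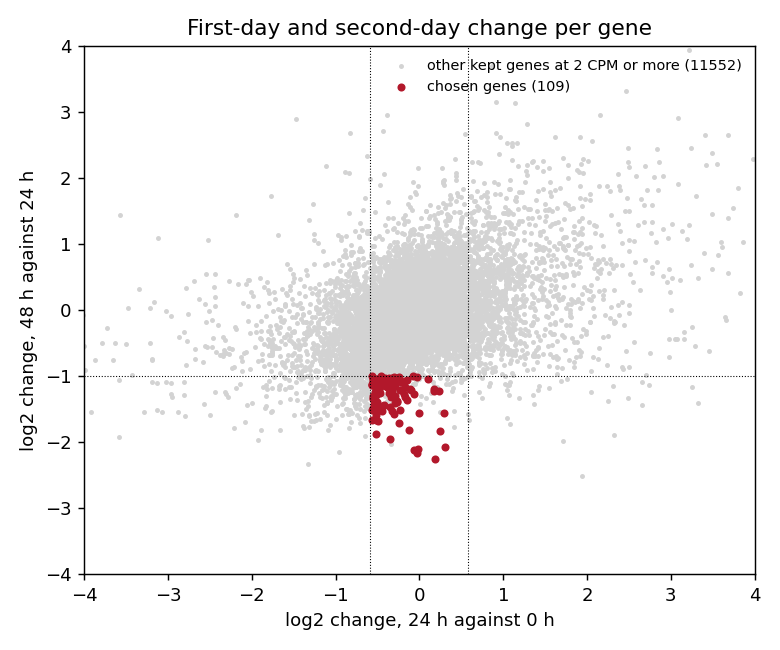
Each point is 1 gene at 2 CPM or more at 0 h, with its log2 change from 0 h to 24 h on the horizontal axis and from 24 h to 48 h on the vertical axis, both on day means plus 0.1 CPM. The 109 chosen genes (red) lie below the dotted line that marks a halving and between the dotted lines that mark 1.5-fold, mostly left of 0, and 48 of the 11552 other genes (grey) lie outside the axes.

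On the second day the 48 h level was a median of 43.2% of the 24 h level and as little as 21.1%. In 9 members it was 30% or less of the 24 h level, in 37 it was 40% or less, and in 42 it lay between 45% and the limit of 50%. All 109 were called lower (edgeR, 31.9% of all genes called lower), and in all 109 each 48 h library lay below each 24 h library, which held for 27.4% of all genes. The rule required the drop, so neither count is evidence for it. The median log2 change was -1.22 (range -2.38 to -1.004), against -0.03 over all genes tested.

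ENSBTAG00000018493 had the steepest second-day fall of the members at 10 CPM or more. In replicates A to D it held 38.8, 40.1, 45.3 and 53.9 CPM at 0 h and 48.9, 50.4, 42.8 and 60.2 CPM at 24 h. These 2 days overlapped, and the change of 0.19 on the log2 scale missed the threshold (standard error 0.10, edgeR adjusted p = 0.0932). Without replicate C at 24 h, the lowest library of that day, the change was 0.29 (edgeR adjusted p = 0.00808), and without replicate D at 0 h it was 0.27 (edgeR adjusted p = 0.0238). The change also passed the test with library sizes alone (edgeR adjusted p = 0.0314), without the low-count filter (edgeR adjusted p = 0.0408) and in batch 1 alone (edgeR adjusted p = 0.0139). At 48 h the level was 9.56, 9.86, 11.2 and 11.6 CPM, far below every earlier library. Against 24 h this was 4.81-fold lower, a log2 change of -2.27 (standard error 0.11, edgeR adjusted p = 3.34e-14). The gene fell again to 5.87, 8.16, 7.06 and 6.83 CPM at 72 h (log2 change -0.60, standard error 0.12, edgeR adjusted p = 0.000406). At 96 h it held 8.70, 8.62, 9.97 and 7.74 CPM. The rise of 0.32 over 72 h just passed the test (edgeR adjusted p = 0.0451) and missed it with RLE scaling (edgeR adjusted p = 0.0558) or with the libraries of these 2 days alone (edgeR adjusted p = 0.0654). In 14 of 20 refits without a single library, from any of the 5 days, it missed the threshold as well, with an edgeR adjusted p of up to 0.145. The 72 h and 96 h libraries overlapped, through replicate B at 72 h and replicate D at 96 h.

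ENSBTAG00000010384 was next. It began at 34.3, 32.1, 29.9 and 34.1 CPM in replicates A to D at 0 h and stood at 24.03, 24.9, 28.03 and 24.9 CPM at 24 h, with no overlap between the days. The first-day fall of 0.36 on the log2 scale (standard error 0.09) passed the test (edgeR adjusted p = 0.000927). In batch 2 alone, with 2 libraries per day, the change was -0.28 and missed the threshold (edgeR adjusted p = 0.0997). At 48 h the level was 6.85, 6.84, 5.04 and 7.33 CPM, 3.87-fold below 24 h, with a log2 change of -1.95 (standard error 0.10, edgeR adjusted p = 3.07e-14). Unlike ENSBTAG00000018493, this gene fell on each later day as well. It reached 4.48, 5.11, 5.49 and 5.49 CPM at 72 h. The 48 h and 72 h libraries overlapped, since replicates B, C and D of 72 h lay above replicate C of 48 h. At 96 h it held 2.94, 3.17, 3.91 and 3.38 CPM, and all 4 libraries lay below all 72 h libraries. The log2 changes were -0.36 (edgeR adjusted p = 0.00918) and -0.63 (edgeR adjusted p = 0.000258). The first of these missed the threshold in batch 2 alone, at -0.18 (edgeR adjusted p = 0.493). Its 96 h mean of 3.35 ± 0.414 CPM (SD, n = 4) was 10.3% of the 0 h mean of 32.6 ± 2.09 CPM (SD, n = 4), against 19.7% for ENSBTAG00000018493.

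**Figure D3:**
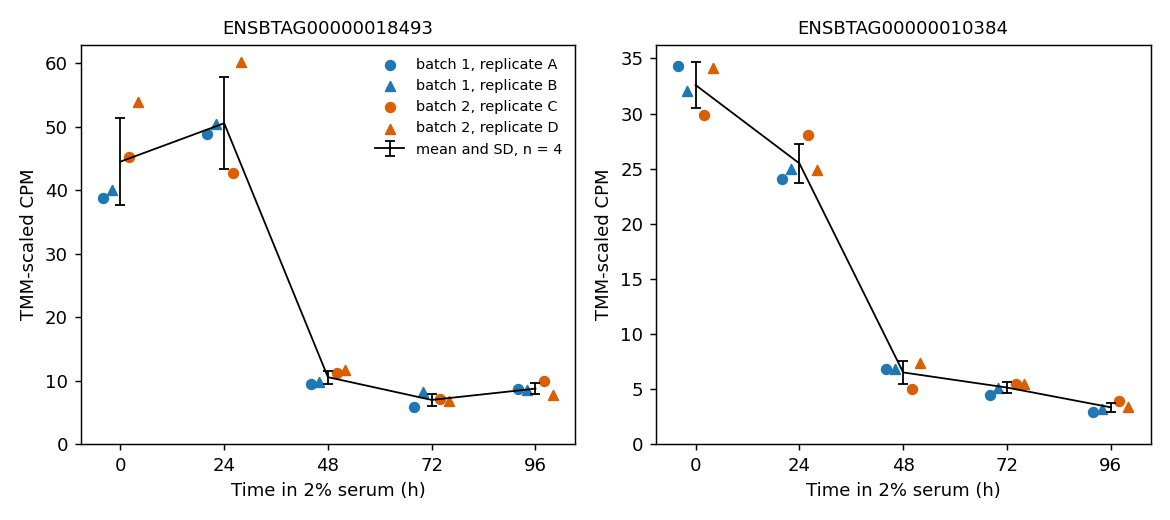
TMM-scaled CPM of ENSBTAG00000018493 (left) and ENSBTAG00000010384 (right) in each of the 20 libraries against time in 2% serum in hours, coloured by batch, with the mean and SD of 4 libraries in black. In both genes all 48 h points lie below all 24 h points, and on the left the 0 h and 24 h points overlap.

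After 48 h the members diverged. Between 48 h and 72 h the edgeR test called 73 of 109 (67%) lower and 0 higher, where 20.8% of all genes were called lower and 20.7% higher. The median log2 change was -0.42, with a range from -1.06 to 0.43, and 10 members had a higher mean at 72 h than at 48 h without passing the test. Between 72 h and 96 h, 43 (39.4%) were called lower and 4 higher, against 18% and 19.3% of all genes, with a median log2 change of -0.31 and a range from -1.33 to 0.41. For 90 members the lowest of the 5 day means was that of 96 h, for 18 that of 72 h, and for 1 that of 48 h. The rule bounded the third-day drop and any fourth-day rise but did not require further loss, so these counts describe a constrained set and were given no test as a group. With 2 libraries per day, batch 1 alone called 65 lower between 48 h and 72 h and 35 between 72 h and 96 h, where 12.7% and 15.1% of all genes were called lower. Batch 2 alone called 38 and 28 lower, where 12.4% and 8.33% of all genes were.

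The 4 members called higher at 96 h than at 72 h gained little. They went from 14.9 to 18.0 CPM, from 2.17 to 2.75 CPM, from 8.59 to 11.4 CPM and, for ENSBTAG00000018493, from 6.98 to 8.76 CPM. Their edgeR adjusted p-values lay between 0.0448 and 0.0474, all close to the threshold of 0.05. With RLE scaling or library sizes alone 0 members were called higher in this step, although the log2 rise of ENSBTAG00000018493 with RLE scaling was 0.31, against 0.32 with TMM. Each ended at 19.7% to 27.5% of its 0 h mean.

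Members differed in how much of the 48 h level was left at 96 h, with a median of 63.2% and a range from 26.8% to 100.1%. In 19 members the 96 h level was at 50% of the 48 h level or less. From 24 h to 96 h these 19 had medians of 79.6%, 33.5%, 19.4% and 12.5% of 0 h, and 18 of them were called lower on the third day and 13 on the fourth. In 23 other members the 96 h level was above 80% of 48 h. Their medians on the same days were 70.8%, 31.8%, 28.9% and 27.4%, with 8 called lower on the third day, and 2 lower and 2 higher on the fourth. Both sets thus stood at nearly the same median at 48 h and were parted by the days after it, which is how they were divided. The remaining 67 lay between. Over all genes, 20.8% were called lower on the third day, and 18% lower and 19.3% higher on the fourth. The division by the 96 h level constrained the counts of calls in both sets, so they are descriptions.

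The deepest loss relative to 0 h belonged to a scarce transcript that started at 5.58, 4.34, 5.09 and 4.94 CPM in replicates A to D. At 24 h it held 3.50, 3.46, 3.47 and 3.31 CPM, followed by 1.499, 1.80, 1.78 and 1.26 CPM on the second day. It ended at 0.331, 0.466, 0.510 and 0.101 CPM at 96 h, 7.06% of the 0 h mean. Those last values rest on 10, 10, 9 and 3 counts, so the size of the final loss is imprecise. Across all members the fewest counts summed over the 4 libraries were 288 for 0 h and 17 for 96 h.

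In growing cells the members took up 2.08 ± 0.0928% of the counts (SD, n = 4). This share was 1.61 ± 0.116% after 1 day and 0.565 ± 0.0502% after 2 days in low serum, and 0.404 ± 0.0452% and 0.378 ± 0.0417% after 3 and 4 days (SD, n = 4 libraries for each). A pair of genes supplied most of that. The most abundant member lay between 6587 and 8111 CPM in the 0 h libraries. It averaged 4997 ± 608 CPM on the first day and 2035 ± 189 CPM on the second, and ended at 1784 ± 284 CPM (SD over 4 libraries). The second most abundant started at 4848 ± 404 CPM, went through 3689 ± 278 and 1735 ± 164 CPM on those days, and ended at 1256 ± 148 CPM (SD over 4 libraries). Both were called lower on each of the first 3 days, and neither passed the test on the fourth (edgeR adjusted p = 0.0732 and 0.843). From 0 h to 96 h the share of this pair went from 1.37 ± 0.0982% to 0.260 ± 0.0384%, and that of the remaining members from 0.711 ± 0.00704% to 0.118 ± 0.00347% (SD over 4 libraries).

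The course was similar from library to library. The median over members, as a percentage of each gene's 0 h mean, was 77.1%, 78.0%, 75.9% and 75.0% in replicates A to D at 24 h and 34.4%, 34.6%, 28.7% and 31.4% at 48 h. It was 24.03%, 25.1%, 23.1% and 23.6% at 72 h and 21.1%, 20.1%, 18.98% and 20.6% at 96 h. No library of one day overlapped with a library of the next in this median. The members were chosen from the means of these same libraries, with a halving on the second day required. The likeness and the lack of overlap are therefore descriptions and no support for the course. Replicate C at 48 h was the lowest of its day, and it also had the lowest TMM factor of that day, 0.948 against 0.972 to 0.976. Without it all 109 members were still called lower between 24 h and 48 h, their median level at 48 h was 33.8% of 0 h against 32.5%, and the rule took 93 genes, 92 of them among the 109.

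**Figure D4:**
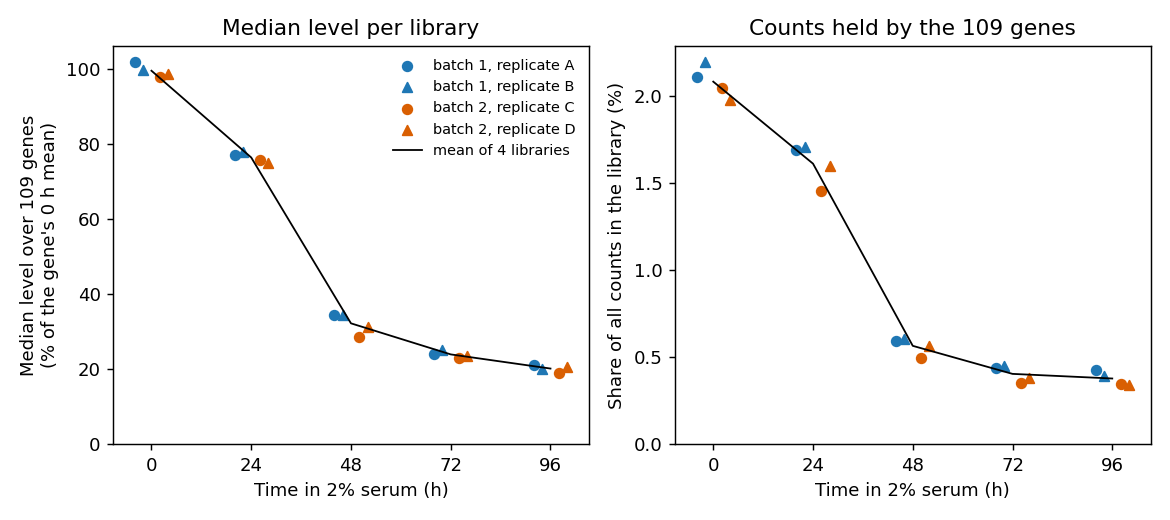
Left, the median over the 109 genes of the level in each library as a percentage of the gene's 0 h mean. Right, the share of all counts in each library held by the 109 genes, both against time in 2% serum in hours with points coloured by batch and the mean of 4 libraries as a line. The 48 h points lie at 28.7% to 34.6% on the left and at 0.494% to 0.606% on the right, below all 24 h points in both panels.

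Because all 20 libraries had a part in choosing the members, the rule was also applied to each batch alone, with its own filter and scaling, and its genes were measured in the batch that had not chosen them. Batch 1 gave 93 genes. In batch 2 their median levels from 24 h to 96 h were 73.8%, 32.2%, 23.9% and 20.96% of 0 h. All 93 had a lower fitted level at 48 h than at 24 h in batch 2, and 91 passed the edgeR test there, where 23.3% of all genes were called lower. Batch 2 gave 126 genes, with medians of 76.8%, 35.2%, 26.3% and 22.3% on the same days in batch 1. All 126 were called lower at 48 h than at 24 h in batch 1, where 26.3% of all genes were called lower. The second-day drop of genes picked in one batch was thus also found in the libraries of the other.

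The single limits of the rule were met again by most but not all of these genes in the batch that had not chosen them. Of the 93 genes from batch 1, 74 were within 1.5-fold at 24 h in batch 2, and their 24 h levels there ran from 38.8% to 164% of 0 h. Of the 126 from batch 2, 95 were within 1.5-fold in batch 1. The share of all genes within 1.5-fold was not counted in either batch. On all libraries the quartiles of the first-day log2 change over all genes were -0.35 and 0.42, both within 1.5-fold. These 2 counts are therefore not read as a trait of the chosen genes. A drop of at least 2-fold on the second day was seen again for 78 of 93 in batch 2, where 5.91% of all genes dropped as much, and for 88 of 126 in batch 1, where 5.4% did. Loss of at least 3-fold by 96 h was seen again for 89 of 93 and 112 of 126. The share of all genes with such a loss was not counted, while 17.4% in batch 2 and 17.3% in batch 1 were at least 2-fold lower. The whole rule was met in both batches by 60 genes, 64.5% of the batch 1 choice and 47.6% of the batch 2 choice, where it took 0.622% and 0.861% of all genes tested. Members met it in both batches in 60 cases, and 6 members met the rule in neither batch alone.

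**Figure D5:**
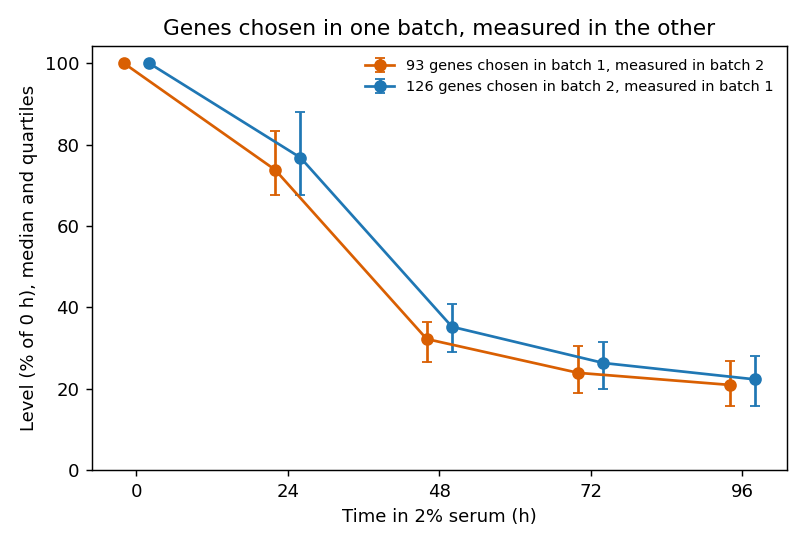
Level as a percentage of 0 h against time in 2% serum in hours for genes that the rule picked in one batch, measured in the libraries of the other batch, with the median over genes as points and the quartiles as bars. Both lines drop most between 24 h and 48 h, from medians of 73.8% and 76.8% to medians of 32.2% and 35.2%.

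The later daily changes were counted in the same way. Of the genes chosen in batch 1, 34 of 93 were called lower in batch 2 between 48 h and 72 h, where 12.4% of all genes were, and 20 of 93 between 72 h and 96 h, where 8.33% were. Of the genes chosen in batch 2, 76 of 126 and 45 of 126 were called lower in batch 1, against 12.7% and 15.1% of all genes. Whether the batches differ in this was not tested on the counts. Among the 109 members themselves, the daily log2 changes were compared between both batches, with a Pearson r of 0.648 on the first day, 0.696 on the second, 0.561 on the third and 0.4 on the fourth. These are descriptions across 109 genes that share libraries and limits within each batch. The direction of the daily change was opposite in the batches for 6, 0, 21 and 26 members.

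Batch itself was not part of the rule. The level differed between batches for 19 of 109 members (17.4%, edgeR), close to the 19.2% of all genes, with 15 lower and 4 higher in batch 2 against 8.36% and 10.9% of all genes. The largest difference among members was 0.43 on the log2 scale, small beside the second-day change. For the most abundant member the batch means at 0 h were 8041 CPM in the first and 6592 CPM in the second, and those at 96 h were 2017 and 1550 CPM, each over 2 libraries. Its log2 difference was -0.30 (standard error 0.04, edgeR adjusted p = 1.26e-05). The count of 19 moved with single libraries. It was 31 without replicate A at 0 h, 9 without replicate B at 0 h, 9 without replicate C at 48 h, and 12 without replicate A at 48 h, without replicate A at 72 h or without replicate C at 72 h. The share over all genes was not counted in these refits. The edgeR batch by time test called 0 members, and 0.00683% of all genes. At an unadjusted p under 0.05 in the same edgeR test there were 15 members (13.8%) against 9.72% of all genes. DESeq2 also called 0 members. Without the low-count filter the edgeR test called 9 members. With 2 libraries per batch and time point the test can miss differences, so 0 calls do not show that the time courses were the same.

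Starting level divided the members as follows, within limits that the rule set for every one of them. The 24 members under 10 CPM at 0 h had median levels of 81.3%, 30.4% and 15.2% of 0 h after 24, 48 and 96 h. The 69 from 10 to under 100 CPM had 76.0%, 33.0% and 20.7%, and the 16 at 100 CPM or more had 75.2%, 32.2% and 19.8%. In the order of these 3 ranges, 12 of 24, 53 of 69 and 15 of 16 were called lower on the first day, and 12 of 24, 48 of 69 and 13 of 16 on the third. Over all genes, 34.5% and 20.8% were called lower on these days. The standard error of the first-day log2 change was 0.17 for the member at 2.12 CPM and 0.06 for the one at 7317 CPM. A change of the same size is thus harder to call in scarce members, and the counts do not show that abundant members fell more often. The 40 members between 80% and 125% of 0 h at 24 h had a median of 89.5% there, and the 69 others one of 70.5%. By 48 h these medians were 36.7% and 31.7%, and by 96 h 20.3% and 20.1%.

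Set beside other lost genes, the members were a minority. In all, 1033 genes started at 2 CPM or more and were at least 3-fold lower at 96 h, and the 109 are 10.6% of them. For 777 of the 1033 the level had already dropped at least 1.5-fold by 24 h, with medians of 47.8%, 25.8% and 18.2% of 0 h after 24, 48 and 96 h. Another 135 were within 1.5-fold at 24 h but not halved by 48 h, with medians of 73.9%, 44.3% and 27.8%. The members' medians of 76.1%, 32.5% and 20.1% lay between these sets at 48 h and 96 h. The median 0 h level was 32.4 CPM for the 777, 30.04 CPM for the 135 and 29.3 CPM for the members. All 3 sets were defined by these same means, so the differences between them were not tested.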

How the data were processed

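Per the labels' protocols, stranded mRNA libraries were read to 75 bp. STAR 2.7, featureCounts and the build bosTau9 are named in the submitters' processing notes. How they were run, strand setting included, and the gene annotation were not given in the sources used here, so reads of overlapping or antisense genes may be shared. The deposited values were raw counts per gene for 20 libraries, and 0 lines named no gene. Within a day the library pairs differed beyond sampling noise (chi-square per degree of freedom of at least 3.98 in 30 pairs, within and across batches), so none was treated as a copy of another. This does not show that they are independent cultures.

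The analysis ran edgeR 4.0.16 under R 4.3.3: filterByExpr by day (minimum count 10, minimum total 15), TMM scaling, and a robust quasi-likelihood model with time point and batch on all 20 libraries. Two-sided F-tests were adjusted by Benjamini-Hochberg over 14636 genes and called at 0.05. A second model added batch by time terms. Standard errors were derived from the fold change and the F statistic. Alternatives were DESeq2 1.42.0, RLE scaling, library sizes alone, no filter, each batch alone, only the days compared, a letter block and each library left out.

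The members and the planned gene lists were chosen with earlier results of these data known. The lists, markers and promoter motifs were not applied, because 0 identifiers were paired with a symbol. The rule for naming took members with a symbol, and without symbols the first 2 identifiers by the ratio of 48 h to 24 h among those at 10 CPM or more at 0 h. Other members are described by position in the set and were singled out after their values were seen. Depth limits scarce members most.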

Additional observations from a re-analysis of the deposited data

How the results depend on the processing

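The alternative settings were planned, but the member called higher on the first day was added to the refits after its values were seen. The second-day calls were 109 of 109 under each alternative run, which the choice of members nearly fixes. The number of members moved with the scaling and the limits. It was 382 with library sizes alone, 174 with the second-day limit at 57.1% of 24 h, 63 with it at 44.4%, and 40 with the first-day limits at 80% and 125%. It stayed within 1.5 times of 109 with RLE scaling, no filter, an offset of 1 CPM, medians, either batch and each left-out library (93 to 119). The genes themselves were kept less well in some of these settings. Of the 109 members, 73 were kept with the offset of 1 CPM, 74 in batch 1 alone, 89 in batch 2 alone and 95 with medians. RLE scaling kept 101, no filter kept 109, and the refits without single libraries kept 92 to 109. Library sizes alone put the median log2 change of all genes at -0.31 for the second day and at -0.40 for the whole course, and the median member level from 24 h to 96 h at 79.9%, 27.9%, 19.5% and 15.2%. The median was 77.6% at 24 h and 21.1% at 96 h in batch 1 alone and 73.9% at 24 h and 23.1% at 72 h in batch 2 alone, and 75.3% to 78.1% at 24 h without single libraries. Batch 2 alone called 39 members between 48 h and 72 h and 28 between 72 h and 96 h, and batch 1 alone, with as many libraries, called 66 and 38. The difference between batches was called for 32 members without the low-count filter and for 9 to 31 without single libraries, and the batch by time test called 9 without the filter. For the fits without the filter or without single libraries, the share called over all genes was not counted. For each batch alone, the shares of all genes called lower in these steps are given above. Nothing about the members is read from any of these counts. The cause of the shifts was not tested.

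The letters A to D were treated as names and not as pairs. Of 40 same-letter pairs, 22 had deviations from the day means correlated over 0.1 (median 0.137, range -0.352 to 0.526), and in 7 of 20 libraries the mean correlation was highest with the same letter. With the letter as a replicate block, the calls among members were 78 for the first day, 109 for the second, 71 for the third and 46 for the fourth, against 81, 109, 73 and 47. The share called over all genes was not counted with this block, so nothing about the members is read from the difference.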

Other observations

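The spread between libraries of the members was near that of other genes. Their median biological coefficient of variation, fitted per gene, was 8.51%, against 7.37% for kept genes at 2 CPM or more at 0 h. Across the 109 members, the log2 starting level and the signed second-day log2 change were weakly related. The Pearson r was 0.176 and the Spearman rho 0.0741. Since every one of these changes was a fall, a positive sign means a slightly smaller fall in members with a higher starting level. The first-day and second-day changes had a Pearson r of -0.317 across members. Both changes use the 24 h mean, which enters them with opposite signs, and the limits of the rule truncate both, so these values are descriptions.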
